A study of Sus scrofa with 6 samples.

Results

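Ionotropic and metabotropic glutamate receptors and GABA-A receptors were followed to day 45 of pig midbrain-like organoid culture. The set held every gene whose symbol starts with GRIA, GRIK, GRIN or GRM and a digit, or with GABR, which gave 40 of the 30477 genes counted: 4 AMPA, 5 kainate, 6 NMDA and 8 metabotropic glutamate receptor genes, and 17 GABA-A genes. GRIN1 was not analysed here. Organoids were made from 1 pig embryonic stem cell line, IVF_1_ pESC_FIW, and were sampled on day 11 (D11), day 28 (D28) and day 45 (D45), with 2 libraries, A and B, for each day. All had been patterned with SB431542, Noggin, SHH-C24II and CHIR99021 and then with FGF8, with BDNF and ascorbic acid joining FGF8 before D11. Only the D28 and D45 organoids had gone through Matrigel embedding and terminal differentiation with BDNF, GDNF, ascorbic acid, db-cAMP and DAPT, so culture medium and age cannot be told apart in the comparisons with D11. The labels give the cell type as midbrain dopaminergic neurons, but cells that held STMN2 and 3 or more of 5 dopaminergic markers numbered 75 to 310 per library, and cells with markers of the floor plate, astrocytes, the oligodendrocyte lineage and fibroblasts were counted as well.

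Fast excitation in the brain runs through AMPA and kainate receptors, while NMDA receptors need glutamate, a co-agonist and depolarisation together and pass calcium. Metabotropic glutamate receptors signal through G proteins on neurons and on glia. GABA-A receptors are chloride channels assembled from alpha, beta and gamma or other subunits, and the alpha subunit sets much of their drug response and their place in the membrane. In immature neurons the chloride gradient can make GABA excitatory, and subunit makeup shifts as neurons mature.

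The 6 libraries kept 13954 to 21615 cells each and 106851387 to 180098372 UMIs, with a median of 2240 to 10741 UMIs per cell, lowest on D45. Levels are in CPM, which is how many UMIs a gene had per 1000000 UMIs of the same cells, and since the kit counts the 3' ends of transcripts, levels of different genes are only roughly comparable. Barcodes shared between any pair of libraries numbered 55 to 119. The share of cells with 1 or more UMIs of STMN2, a gene for a microtubule regulator of growing axons, was 26.8% in D11 A, 33.4% in D11 B and 68.4% to 74.8% in the later libraries. This gate was not a clean neuron gate on any day. On D11, 1595 of 3946 STMN2+ cells in library A and 1871 of 7214 in library B held 3 or more other neuron markers. Of cells with 3 or more fibroblast markers, 61.5% to 65.7% also held an STMN2 UMI on D28 and D45. Cells were then thinned to 1000 UMIs, which left out those with fewer, 1931 to 6735 cells per library on D28 and D45. Among the thinned cells, the share on these days was 8.82% to 16.0% in those with fibroblast markers and 40.3% to 54.0% in all. The class is therefore called STMN2+ cells, and counts from a stricter gate are given where they moved. In sums over many cells, fewer cells of a type and less RNA per cell cannot be told apart.

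Most receptor subunit genes were higher on D28 and D45 than on D11. Between D11 and D45, 30 of the 40 passed the test in whole organoids, 28 higher and 2 lower, against 34.7% of the 22197 genes tested, of which 17.3% were higher and 17.4% lower. The median log2 fold change was 1.78 over the 40 genes and -0.01 over all genes tested. Between D11 and D28, 27 of 40 passed, 25 higher and 2 lower, against 23.1% of all genes (12.5% higher and 10.6% lower), and the medians were 1.49 and 0.03. Between D28 and D45, 12 passed, 10 higher and 2 lower, against 9.46% of all genes (4.51% higher and 4.95% lower), and the medians were 0.39 and -0.03. Adjusted p-values come from the quasi-likelihood test of edgeR, adjusted by Benjamini and Hochberg's method across every gene tested, at a threshold of 0.05. The D28 and D45 comparisons with D11 share the D11 libraries. The D45 against D28 count fell away without either D45 library, fell without either D11 library and rose without either D28 library. The D28 against D11 count fell without either D11 library. Both moved the same way over all genes, so neither count is firm. With 1 library left out, the median of the 40 genes was 0.36 to 0.59 for D45 against D28, and -0.044 to 0.024 over all genes. For D28 against D11 it was 1.42 to 1.65, and 0.0025 to 0.093 over all genes.

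**Figure D1:**
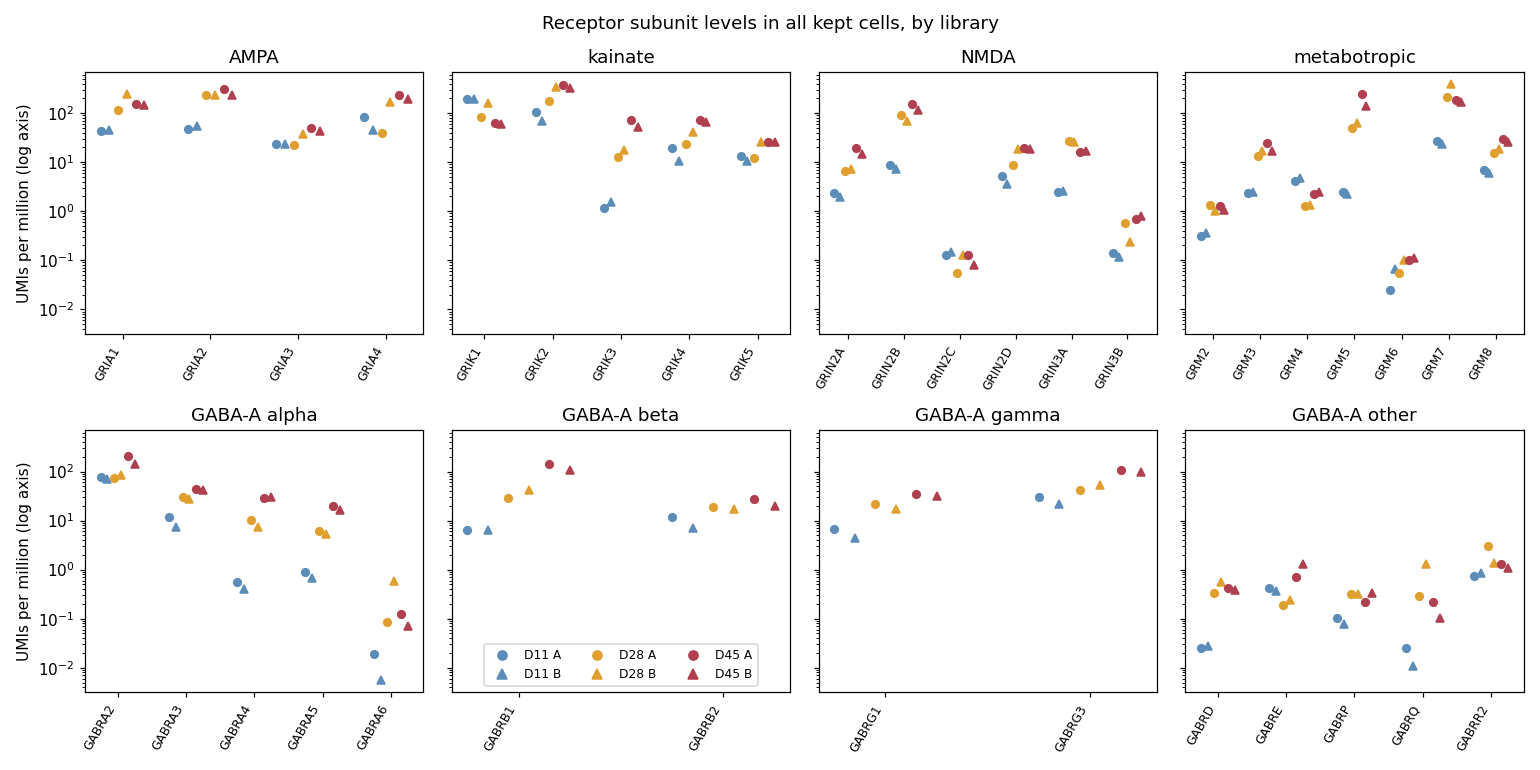
Level of the receptor subunit genes reported here in all kept cells, in CPM on a log axis, with 1 point per library (circles A, triangles B; blue D11, orange D28, red D45) and 1 panel per family. GRIK1 and GRM4 lie lower on D45 than on D11, while GRM5, GABRA4 and GRIK3 span more than an order of magnitude.

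Among the AMPA receptor genes, GRIA2, whose edited subunit keeps the receptor closed to calcium, had the highest mean level. Its level was 48.3 and 53.4 CPM in the D11 libraries, 230 and 229 on D28 and 306 and 235 on D45. The D11 libraries lay below all others, and GRIA2 rose by a log2 fold change of 2.00 ± 0.21 (SE) from D11 to D45 (adjusted p = 0.000817). GRIA1, another pore-forming subunit, peaked in D28 B at 240 CPM and rose by 1.36 ± 0.27 over the same days (adjusted p = 0.00912). GRIA3 and GRIA4 did not pass the test between any of the days. The GRIA4 libraries of 1 day lay far apart, with 81.6 and 45.8 CPM on D11, then 38.8 and 168 on D28 and later 233 and 194 on D45.

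The kainate receptor genes moved in both directions. GRIK2, the most abundant, stood at 106 and 69.9 CPM on D11, then 180 and 334 on D28 and later 372 and 330 on D45, a rise of 1.59 ± 0.29 from D11 to D45 (adjusted p = 0.00655). GRIK3 rose further, from 1.16 and 1.57 on D11 to 12.5 and 17.9 on D28 and 71.9 and 51.5 on D45. Each later day lay above the earlier ones without overlap, and the log2 fold changes were 3.19 ± 0.26 from D11 to D28 and 1.89 ± 0.24 from D28 to D45 (adjusted p = 0.000856 and 0.0101). GRIK1 went the other way, from 198 and 198 CPM on D11 to 83.8 and 157 on D28 and 62.2 and 58.7 on D45. The libraries of the days did not overlap, and GRIK1 fell by 1.01 ± 0.24 from D11 to D28 and by 1.11 ± 0.24 from D28 to D45 on the log2 scale (adjusted p = 0.0249 and 0.0363). On D11, STMN2- cells with 3 or more floor plate markers, which mark the ventral midline progenitors, held 303 and 250 CPM of GRIK1. GRIK4, one of the high-affinity subunits, rose from D11 to D45 by 1.81 ± 0.31, and GRIK5, the other, did not pass in any of these comparisons.

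NMDA receptor genes rose from very low levels. GRIN2B, the subunit that prevails in the immature brain, stood at 8.69 and 7.37 CPM on D11, then 90.5 and 70.4 on D28 and later 154 and 117 on D45. It rose by 3.66 ± 0.27 on the log2 scale from D11 to D45 (adjusted p = 0.000309), and no library of D11 reached those of the later days. GRIN2A, the subunit that gains weight after birth, was lower throughout, at 2.31 and 1.98 on D11, then 6.61 and 7.32 on D28 and later 19.2 and 14.9 on D45. It rose at both steps, by 1.44 ± 0.21 and 1.14 ± 0.21 (adjusted p = 0.00504 and 0.0251). GRIN3A, a glycine-binding subunit that lowers calcium entry, peaked on D28: its levels were 2.48 and 2.62 on D11, then 26.3 and 26.1 on D28 and later 16.2 and 16.9 on D45. GRIN3A rose by 3.11 ± 0.20 to D28 and then fell by 0.82 ± 0.19 to D45 (adjusted p = 0.000621 and 0.0414). GRIN2D rose from D11 to D45 by 1.70 ± 0.32. GRIN3B rose by 2.12 ± 0.53, from 22 and 21 UMIs on D11 to 81 and 101 on D45, and stayed below 1 CPM. GRIN2C did not pass and held 6 to 26 UMIs per library.

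Of the metabotropic genes, GRM7, a presynaptic receptor that dampens release, was the most abundant, with 27.3 and 23.0 CPM on D11, then 209 and 396 on D28 and later 187 and 168 on D45. GRM7 rose by 3.29 ± 0.27 from D11 to D28 (adjusted p = 0.000937) and did not pass the test between D28 and D45. STMN2- cells with 3 or more floor plate markers held 16.4 and 11.3 CPM of GRM7 on D11 and 243 and 527 on D28. STMN2+ cells with 3 or more dopaminergic markers held 180 and 359 on D28. GRM5, a Gq-coupled receptor of neurons and of young astrocytes, had the highest log2 fold change of the set from D11 to D45, 5.94 ± 0.32 (adjusted p = 0.000148). Its levels were 2.46 and 2.23 on D11, then 48.7 and 62.5 on D28 and later 248 and 138 on D45, so the days did not overlap but the D45 libraries differed from each other. GRM3 and GRM8 rose from D11 to D45 by 2.69 ± 0.23 and 1.71 ± 0.17, and the scarcer GRM2 by 1.36 ± 0.35. GRM4, a receptor of presynaptic terminals, was the second gene that fell, from 4.21 and 4.75 CPM on D11 to 1.26 and 1.33 on D28 and 2.23 and 2.48 on D45. GRM4 fell by 1.34 ± 0.25 from D11 to D45 (adjusted p = 0.00777). GRM6, known from retinal bipolar cells, held 4 to 14 UMIs per library.

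The GABA-A alpha genes did not rise alike. GABRA2, the most abundant alpha subunit gene, held 77.0 and 69.3 CPM on D11 and 73.7 and 84.4 on D28, which overlapped, and reached 212 and 145 on D45. It rose by 1.02 ± 0.20 from D28 to D45 (adjusted p = 0.0297). GABRA4 started near 0, with 0.569 and 0.400 CPM on D11, and reached 10.5 and 7.40 on D28 and 28.3 and 29.6 on D45. Its log2 fold change from D11 to D45 was 5.50 ± 0.35 (adjusted p = 0.000264), the next after GRM5. GABRA5, a subunit of extrasynaptic receptors, went from 0.878 and 0.689 on D11 to 6.08 and 5.36 on D28 and 19.6 and 16.7 on D45. Each day lay apart, with a rise of 4.12 ± 0.27 overall (adjusted p = 0.000266). GABRA3 rose from D11 to D45 by 1.75 ± 0.26. GABRA6, known from cerebellar granule cells, passed the test from D11 to D28 (adjusted p = 0.0250) but held 3 and 1 UMIs on D11, then 9 and 74 on D28 and later 15 and 9 on D45, too few on D11 to give a fold.

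Among the beta and gamma genes, GABRB1 went from 6.29 and 6.32 CPM on D11 to 28.9 and 41.5 on D28 and 145 and 109 on D45. It rose at each step without overlap, and from D11 to D45 by 3.92 ± 0.21 (adjusted p = 0.000148). GABRB2 rose over the same days by 0.92 ± 0.29 (adjusted p = 0.0472). GABRG3 was the most abundant gamma gene, with 29.9 and 22.1 CPM on D11, then 41.4 and 52.5 on D28 and later 108 and 96.9 on D45. GABRG3 rose by 0.98 ± 0.18 from D28 to D45 and did not pass from D11 to D28 (adjusted p = 0.0252 and 0.0571). The other GABA-A genes were scarce: GABRR2 led them at 0.739 to 2.99 CPM, and its identifier carries the name GABRR1 in the reference table. GABRD, a subunit of tonic receptors, held 4 and 5 UMIs on D11, then 35 and 70 on D28 and later 50 and 50 on D45, and passed from D11 to both later days. GABRE held 67 and 66 UMIs on D11, then 20 and 31 on D28 and later 85 and 165 on D45, and rose by 2.08 ± 0.41 from D28 to D45 (adjusted p = 0.0294). GABRQ held 4 and 2 UMIs on D11 and was highest in D28 B, with 163, against 31 in D28 A and 26 and 13 on D45, and it passed from D11 to D28 (adjusted p = 0.00848), with too few UMIs on D11 for a fold. GABRP held 14 to 43 UMIs per library and rose by 1.58 ± 0.41 from D11 to D28.

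Many GABA-A genes sit in clusters of the pig genome (RefSeq annotation of Sscrofa11.1), and the fold changes of neighbours lay apart, although the differences between neighbours were not tested. In the chromosome 8 cluster, chr8:36198056-37354950, the log2 fold changes from D11 to D45 were 2.19 for GABRG1, 0.87 for GABRA2, 5.50 for GABRA4 and 3.92 for GABRB1, and all 4 passed the test. On the X chromosome, chrX:123278459-123855187, GABRA3 passed over these days, while its neighbours GABRE and GABRQ did not. The annotated GABRA5 gene overlaps a gene on the opposite strand, so its reads could be shared if strand was not used in counting.

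Within STMN2+ cells, too, most of the genes were higher on the later days. From D11 to D45, 30 of 40 genes passed, 28 higher and 2 lower, against 27.3% of 21393 genes tested (14.2% higher and 13% lower), with a median of 1.66 for the set and 0.05 for all genes. From D11 to D28, 24 passed, 23 higher and 1 lower, against 16% of all genes (8.57% higher and 7.46% lower), with medians of 1.55 and 0.06. From D28 to D45, 9 passed, all higher, against 6.1% of all genes (3.38% higher and 2.72% lower), with medians of 0.33 and -0.01. With 3 or more STMN2 UMIs required, 5 of 38 genes passed from D28 to D45, against 572 of 20165 over all genes. With DESeq2 14 of 37 passed, against 3400 of 19319. The D28 to D45 count fell away without either D45 library, fell without either D11 library and rose without either D28 library. The D11 to D28 count fell without either D11 library, and the D11 to D45 count fell without any D11 or D45 library. All these counts moved the same way over all genes. With 1 library left out, the medians of the set were 1.32 to 1.52 from D11 to D28, 0.29 to 0.55 from D28 to D45 and 1.60 to 1.72 from D11 to D45. The summed level of the oligodendrocyte lineage markers in STMN2+ cells was 10.3 and 11.6 CPM on D11, then 40.6 and 85.2 on D28 and later 851 and 656 on D45, and that of the astrocyte markers was 32.9 and 31.1, then 98.8 and 91.3, then 370 and 428. The fibroblast markers held 9.09 and 15.3, then 1025 and 336, then 700 and 2084.5. Floor plate markers fell, from 1219 and 1249 to 531 and 911 and then 188 and 260. Mitotic markers fell from 843 and 820 to 216 and 169 and then 160 and 192. The STMN2+ cells of the 3 days thus differed in makeup. The part of such cells was tested only by leaving out STMN2+ cells with 3 or more astrocyte, oligodendrocyte lineage, fibroblast or mitotic markers. Cells with floor plate markers were not left out. Of 37 genes then tested, 27 passed for D28 against D11, 11 for D45 against D28 and 28 for D45 against D11. Over all genes 3560, 2585 and 6606 of 20331 passed, in the same order.

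For GRM5 the STMN2+ levels were 3.38 and 2.70 CPM on D11, then 57.8 and 72.3 on D28 and later 236 and 143 on D45. The rise from D11 to D45 was 5.66 ± 0.30 in these cells (adjusted p = 0.000157), and the libraries of the days did not overlap. GABRA4 went from 0.505 and 0.462 on D11 to 9.78 and 9.23 on D28 and 28.1 and 30.7 on D45, with a rise of 5.63 ± 0.27 (adjusted p = 0.000157). GABRB1 levels were 5.86 and 5.84, then 34.0 and 52.9, then 149 and 122, with a rise of 4.23 ± 0.21. GRIN2B went from 10.3 and 9.63 to 112 and 91.0 and then 174 and 139, with a rise of 3.68 ± 0.26. In each of these genes the libraries of every later day lay above those of the earlier one. GRIK3 held 3.40 and 3.70 CPM on D11, then 15.2 and 19.8 on D28 and later 71.2 and 52.0 on D45 and rose by 3.81 ± 0.22. GABRA5 went from 1.05 and 0.970 to 7.42 and 7.11 and then 22.3 and 20.2. GRIN3A, by contrast, peaked on D28, with 4.32 and 4.30, then 29.9 and 29.0, then 18.4 and 19.5. GABRG1 rose by 2.48 ± 0.29, from 6.04 and 3.99 on D11 to 35.9 and 32.5 on D45, and GABRA5 by 4.09 ± 0.25. GABRE, with 12 and 14 UMIs on D11, then 14 and 26 on D28 and later 68 and 102 on D45, rose by 1.89 ± 0.40 from D28 to D45. GABRD passed from D11 to both later days, and GABRQ from D11 to D28, but GABRD held 3 and 1 UMIs in the D11 STMN2+ cells and GABRQ 2 and 2, too few for a fold.

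**Figure D2:**
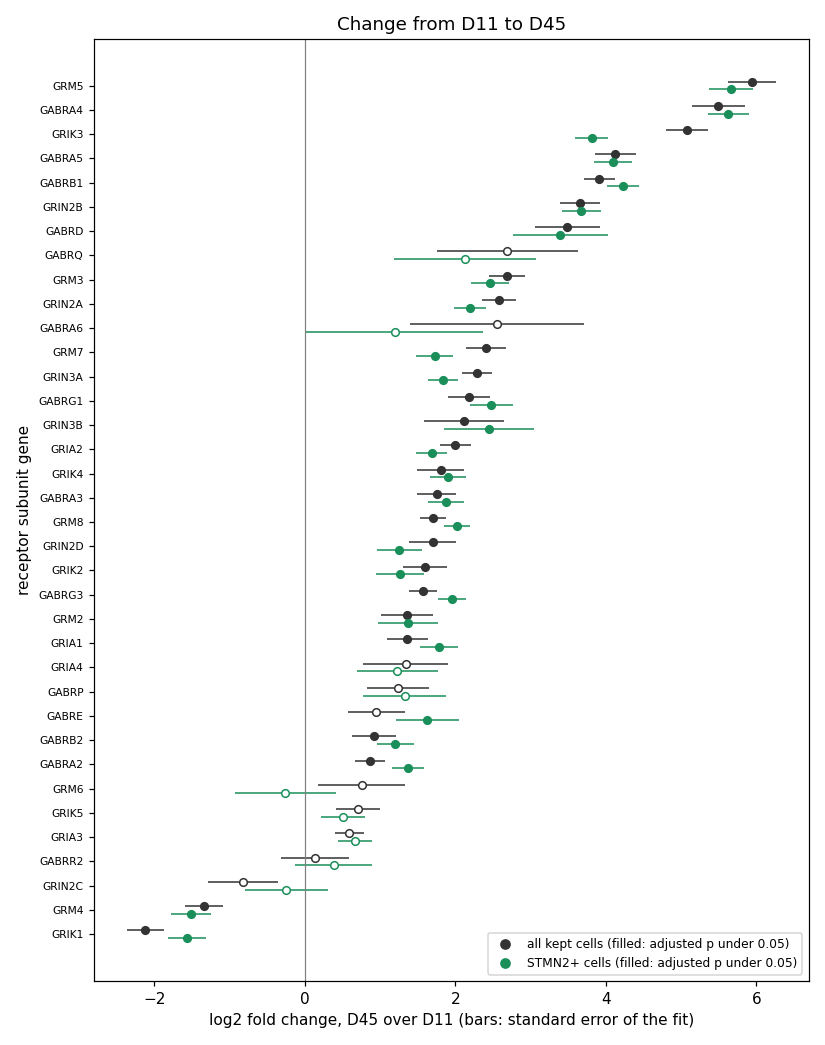
Log2 fold change from D11 to D45 for the receptor subunit genes reported here in all kept cells (black) and in STMN2+ cells (green), with the standard error of the edgeR fit as bars and filled points for an adjusted p under 0.05. In all kept cells GRM5, GABRA4 and GRIK3 lie at the top and GRIK1 and GRM4 at the bottom, with the all-cell and STMN2+ estimates of each of these 5 genes on the same side of 0.

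STMN2+ and STMN2- cells of the same libraries were compared next, with the library as a block. Of 35 genes tested, 21 differed, 20 higher in STMN2+ cells and 1 lower, against 38.4% of 19769 genes (16% higher and 22.4% lower), and the median log2 fold change was 0.66 against -0.04 for all genes. The summed level of the 8 neuron markers, STMN2 among them, was 2290 to 3164 CPM in STMN2+ cells and 131 to 560 in STMN2- cells. GABRA5 was among the genes higher in STMN2+ cells. Its STMN2+ levels, given above, lay over STMN2- levels of 0.807 and 0.530 CPM on D11, then 1.22 and 0.924 on D28 and later 9.91 and 6.32 on D45. GABRA5 was higher in 6 of 6 libraries, by 1.50 ± 0.31 (adjusted p = 0.007). GABRA3 was higher by 1.43 ± 0.35, GRIN2B by 1.38 ± 0.33 and GRIN2A by 1.26 ± 0.24, each in 6 of 6 libraries. The STMN2+ over STMN2- ratios of GRIN2B were 1.28 and 1.58 on D11, then 8.08 and 4.95 on D28 and later 2.13 and 2.72 on D45, so D28 stood above both other days. GABRA5 (1.31 to 7.69), GABRA3 (1.22 to 7.30) and GRIN2A (1.68 to 5.13) also had ratios above 1 in every library. GRIN3B was the gene lower in STMN2+ cells, by a log2 fold change of -0.61 ± 0.15, in 6 of 6 libraries. GRIA1, GRIA3, GRIK1, GRIK4, GABRA4 and GABRG1 were among the 14 that did not pass.

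The size of that difference changed with the day for many genes, which was tested as an interaction between class and day added after the data had been seen. Between D11 and D45 the difference changed for 14 of 35 genes, 7 in each direction, against 17.3% of all genes (4.14% up and 13.1% down). With DESeq2's size factors the split of all genes was 1297 up and 2075 down in place of 818 and 2593, and that of the receptor genes 8 and 7. The background moved more with the gate: with 3 or more STMN2 UMIs required, 3856 of 19123 genes were up and 3306 down, with 9 and 10 of 36 receptor genes, and without STMN2+ cells that carried 3 or more markers of another type 2617 of 18734 were up and 3267 down, with 10 and 6 of 35. The first of these gates put cells with 1 or 2 STMN2 UMIs into the other class. That class then held 13457 cells in D45 A in place of 5708, and 12649 in D45 B in place of 5874. Leaving out 1 library gave 1018 to 5054 genes in all, the fewest without D11 A and the most without D28 A. The receptor count is therefore not set apart from all genes here. GRIK3 had ratios of 13.2 and 10.1 on D11, then 5.55 and 1.54 on D28 and later 0.955 and 1.04 on D45, so the classes lay close together on D45. For GRIN2D the ratio was 1.95 and 2.17, then 1.88 and 1.60, then 1.22 and 1.16. In both genes every library of an earlier day had a higher ratio than those of the later days. Other ratios were higher on D45 than on D11 without a steady order over the days. GABRA2 had ratios of 0.762 and 0.755 on D11, then 1.40 and 1.80 on D28 and later 1.50 and 1.37 on D45. GABRG3 was highest on D28, with 0.918 and 0.944, then 3.61 and 3.79, then 1.94 and 2.61. GABRA3 also peaked on D28, with 1.22 and 1.39, then 7.30 and 6.42, then 2.69 and 2.91. For GABRB2 the ratios were 1.01 and 1.16, then 2.67 and 5.74, then 2.14 and 3.15, so D28 and D45 overlapped. GRIA1 turned only after D28, with 0.830 and 0.811, then 0.863 and 0.774, then 1.43 and 1.49. GRM7 was lower on D45 than on D11 but lowest on D28, with 3.60 and 3.53, then 1.29 and 1.03, then 1.81 and 2.12. STMN2- cells held 13.0 and 14.6 CPM of the oligodendrocyte lineage markers on D11 and 1561 and 1104 on D45, and their neuron marker sum was 168 and 131 on D11 against 560 and 429 on D45. The median UMIs per cell of the classes also moved apart: STMN2+ and STMN2- cells had 11270 and 10589 in D11 A, 9224 and 8590 in D11 B, 6035 and 1098 in D28 A, 8271 and 6941 in D28 B, 3592 and 1106 in D45 A and 5672 and 1532 in D45 B. A further fit left out cells with fewer than 1000 UMIs, thinned the others to 1000 UMIs and set the classes by the thinned STMN2 counts. The difference then changed for 14 of 30 receptor genes tested, 6 up and 8 down, and for 906 up and 1385 down of 13999 genes. The part of other cell types within the STMN2- class in the changed ratios was not tested.

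**Figure D3:**
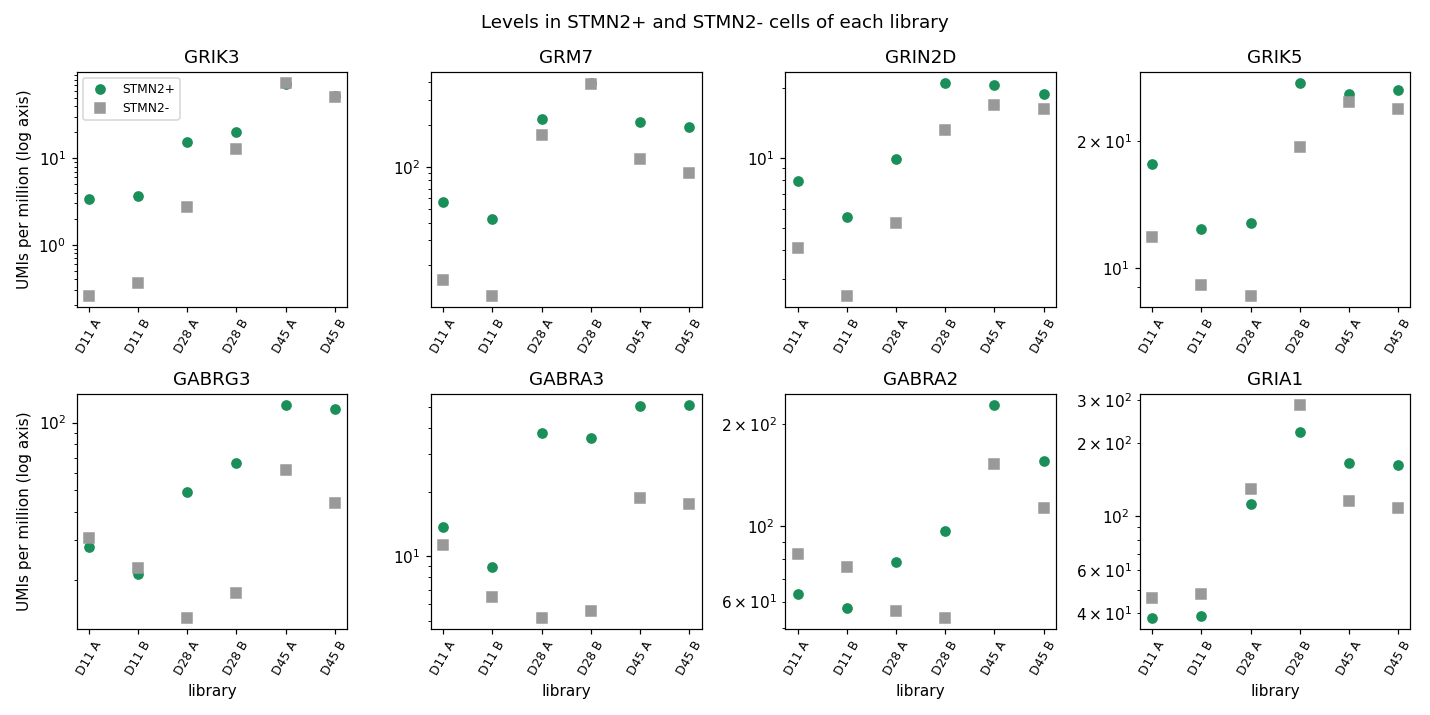
Level in STMN2+ (green circles) and STMN2- (grey squares) cells of each library, in CPM on a log axis that differs between panels. In GRIK3, GRM7, GRIN2D and GRIK5 the classes lie closer on D45 than on D11, with GRM7 closest on D28, and in GABRG3, GABRA2 and GRIA1 their order on D45 is the reverse of that on D11.

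Receptor subunit levels in other cells on D45 were described with STMN2- cells that had 3 or more markers of exactly 1 class and with STMN2+ cells that had 3 or more dopaminergic markers. These cells numbered 313 and 383 for astrocyte markers, 386 and 401 for the oligodendrocyte lineage, 199 and 519 for fibroblasts and 75 and 310 for dopaminergic neurons. Oligodendrocyte-marker cells held 581 and 575 CPM of GRIA4, 845 and 617 of GRIK2 and 272 and 237 of GRIK3. The same cells held 25.4 and 31.8 of GRIN2B and 1.28 and 2.13 of GRIN2A. Astrocyte-marker cells held 652 and 265 of GRM5, 244 and 142 of GABRB1, 143 and 141 of GRIK2 and 2.25 and 2.44 of GRIK3. Dopaminergic-marker cells held 410 and 398 of GRIA2, 59.0 and 106 of GRIN2A, 255 and 294 of GRIN2B and 72.1 and 141 of GRM5. Fibroblast-marker cells gave 16.7 and 28.5 of GRIA4 and 133 and 88.6 of GRIK2. Free RNA was not estimated, so how much of any of these levels came from other cells was not tested. No test between the classes was made, since the classes were chosen by markers and the cells of 1 library are not replicates.

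**Figure D4:**
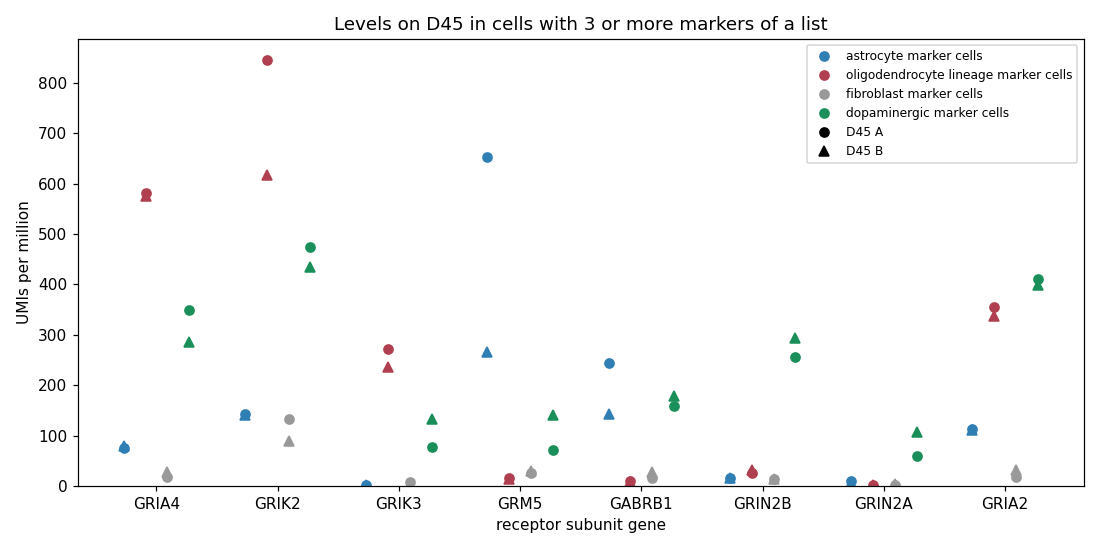
Level on D45 of 8 receptor subunit genes in STMN2- cells with 3 or more astrocyte (blue), oligodendrocyte lineage (red) or fibroblast (grey) markers and in STMN2+ cells with 3 or more dopaminergic markers (green), in CPM (circles D45 A, triangles D45 B). GRIA4, GRIK2 and GRIK3 are highest in oligodendrocyte-marker cells, GRM5 in astrocyte-marker cells, and GRIA2, GRIN2A and GRIN2B in dopaminergic-marker cells.

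STMN2+ cells were split by GAD2, which makes GABA, and SLC17A6, which loads glutamate into vesicles. Cells with GAD2 and no SLC17A6 UMI numbered 37 and 47 on D11, then 124 and 1006 on D28 and later 2496 and 1523 on D45, and cells with SLC17A6 and no GAD2 UMI 239 and 341, then 2959 and 2583, then 1511 and 1808. D28 A thus held far fewer GAD2+ cells than D28 B. Cells with both numbered 4 to 363 per library. Of the 32 receptor genes tested between GAD2+ and SLC17A6+ cells, 2 passed, 1 in each direction, against 2.42% of 15069 genes (0.783% higher and 1.64% lower). An unadjusted p under 0.05 was found for 11 of the 32, against 2135 of the 15069 genes. The medians were -0.18 and -0.01. Without the filter on low counts 11 of 40 passed, against 1007 of 26392 over all genes. With 2 or more UMIs of GAD2 or SLC17A6 required 5 of 32 did, against 527 of 14249. A missed threshold does not show equal levels, and the D11 sums rest on few cells. The classes also differed in other markers. The neuron marker sum was lower in GAD2+ cells of each library. Mitotic markers held 744 and 658 CPM in GAD2+ cells on D11 against 133 and 182, with no steady order later. Oligodendrocyte lineage markers held 376 and 230 on D45 against 291 and 194, and were lower in GAD2+ cells before. Without cells that carried 3 or more markers of another type, 3 of 32 passed, against 530 of 14691 genes.

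GRIK3 was higher in GAD2+ cells. Its GAD2+ levels were 26.4 and 34.3 CPM on D11, then 29.8 and 47.1 on D28 and later 96.0 and 79.3 on D45, against 20.7 and 30.9, 26.2 and 18.5, and 41.1 and 33.0 in SLC17A6+ cells. GAD2+ cells were higher in 6 of 6 libraries, most clearly in D28 B and on D45, and the log2 fold change was 0.95 ± 0.17 (adjusted p = 0.00949). GRIN3A was lower in GAD2+ cells, at 38.0 and 19.3 on D28 and 15.0 and 16.8 on D45 against 48.7 and 47.4 and then 47.3 and 45.5 in SLC17A6+ cells. On D11 the order was turned, at 12 and 17.1 against 9.34 and 10.1, with 5 and 10 UMIs in the GAD2+ cells, so GRIN3A was lower in 4 of 6 libraries, and its log2 fold change was -1.15 ± 0.22 (adjusted p = 0.0144). Without D28 B or D45 B no receptor gene passed. Without D45 A neither of these passed (adjusted p = 0.0753 for GRIK3 and 0.128 for GRIN3A), although GRIA3 and GABRR2 did. GRIN3A also missed the threshold with DESeq2 (adjusted p = 0.151) and in thinned cells (adjusted p = 0.173). GABRA2 was higher in GAD2+ cells of 6 of 6 libraries but did not pass, at 0.62 ± 0.16 (adjusted p = 0.0746). GABRA3 and GRIK4 were lower in GAD2+ cells of 6 of 6 libraries and did not pass either. GRIA2 did not pass, with a log2 fold change of -0.22, and GRM5 did not pass at -0.74 ± 0.25 (adjusted p = 0.196). The difference between GAD2+ and SLC17A6+ cells did not change detectably from D28 to D45 for any of the 32 genes in edgeR, against 0.511% of all genes (0.0597% higher and 0.451% lower). DESeq2 also called none. In edgeR 9 of the 32 had an unadjusted p under 0.05, against 1012 of 15069 over all genes. GRIA3 came closest, at -0.95 ± 0.22 (adjusted p = 0.0792).

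**Figure D5:**
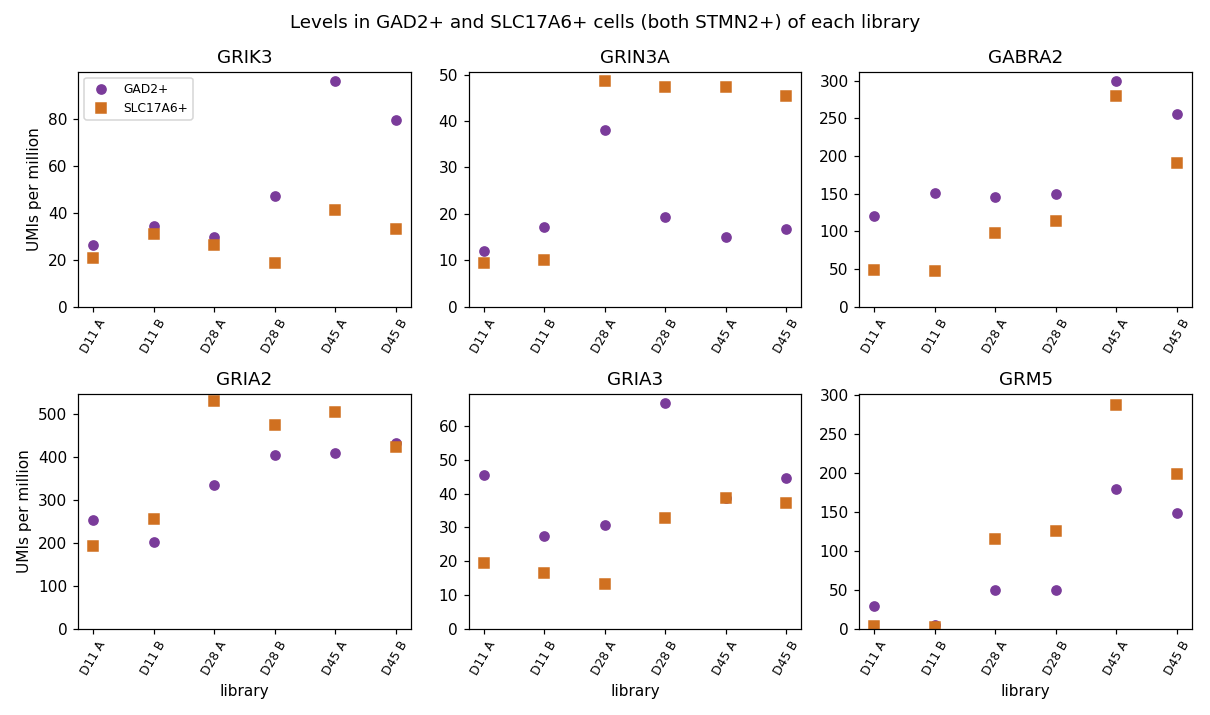
Level in GAD2+ (purple circles) and SLC17A6+ (orange squares) cells, all STMN2+, of each library, in CPM on axes that start at 0. GRIK3 is higher in GAD2+ cells of every library, GRIN3A is higher in SLC17A6+ cells from D28 on, and GRIA3 is higher in GAD2+ cells of both D28 libraries, with the classes close together on D45.

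Genes that work with these receptors were read from lists chosen with earlier results known, and each D11 to D45 count of theirs stands against 34.7% of all genes called between D11 and D45 in whole organoids (17.3% higher and 17.4% lower). The AMPA and kainate partners, the excitatory scaffold and the chloride cotransporters had shares called near that background. Of 14 AMPA and kainate receptor partners tested in whole organoids, 4 were higher and 1 lower on D45 than on D11, with a median log2 fold change of 0.15. CACNG2, the auxiliary subunit stargazin, rose by 2.33 and SHISA9 by 2.15. In the excitatory postsynaptic scaffold list, 6 of 19 rose and 1 fell, led by PICK1, which binds AMPA receptors, at 2.06 and CAMK2B, a calcium-dependent kinase, at 1.96. Of 10 inhibitory scaffold genes and partners 5 rose and none fell, with LHFPL3 at 3.64 and LHFPL4, which brings GABA-A receptors to gephyrin, at 1.98. Of 6 delta receptor genes and organizers, 3 rose and 1 fell, with CBLN1 at 1.92 and CBLN4 at -1.98.

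In the GABA-B list 4 of 5 rose, with GABBR2, a subunit of the receptor, at 1.93. Of 4 glycine receptor genes 2 rose and 1 fell, with GLRA3 at 1.47 and GLRA1 at -2.51. Of 5 chloride cotransporter genes 1 rose and 1 fell: SLC12A5, the KCC2 transporter that exports chloride from neurons, rose by 1.76, and SLC12A7 fell by 0.86 on the log2 scale. Of 14 genes for transmitter synthesis and transport 9 rose and none fell, with GAD1, which makes GABA, at 7.27 and SLC1A3, a glutamate transporter of glia, at 4.16. The medians of these lists were 0.15 to 2.07, against -0.01 for all genes. Between GAD2+ and SLC17A6+ cells, where 2.42% of all genes passed (0.783% higher and 1.64% lower), 3 of the 5 genes in the GABA-B list did. In edgeR none of the 19 excitatory scaffold genes and none of the 5 chloride cotransporter genes passed. At an unadjusted p under 0.05 the counts were 6 and 1, against 2135 of 15069 over all genes. KCTD8 and KCTD16, both auxiliary subunits of GABA-B receptors, went opposite ways, at -0.96 and 0.55, and GABBR2 was lower in GAD2+ cells at -0.64. Of the glycine receptor genes, GLRA1 was higher at 1.39 and GLRA2 lower at -0.97. CBLN2, a synapse organizer, was lower at -1.27, GSG1L, an AMPA receptor partner, at -0.58 and LHFPL3 at -0.63.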

How the data were processed

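Single-cell 3' libraries (GEM-X, 10x Genomics) came from 6 samples, 2 for each of D11, D28 and D45. The authors aligned reads with Cell Ranger to Sscrofa11.1, and the deposited values are raw UMI counts per gene and cell (whole numbers, not normalized). Strand use in counting is not given in the sources used here. The authors' limits were applied: 200 to 7000 detected genes and at most 10% mitochondrial UMIs, read from 13 mitochondrial genes, which kept 103519 of 104820 barcodes. No doublet caller was run.

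UMIs were summed per library over all kept cells, STMN2+ or STMN2- cells, and STMN2+ cells with GAD2 or SLC17A6 but not both. Sums were tested with edgeR 4.0.16 in R 4.3.3 (TMM, filterByExpr, quasi-likelihood test, Benjamini-Hochberg adjustment over all genes tested, threshold 0.05), with day as the factor or, for classes of the same libraries, the library as a block. The standard error is the log2 fold change over the square root of F. DESeq2 1.42.0, other gates, filters and scalings, and each library left out were alternatives. A gate on 3 other neuron markers, fits without D11, and the change of the STMN2 difference between D11 and D45 were added after seeing the data. No fold is given where a group held at most 3 UMIs in a library. The paper calls the libraries biological duplicates, but the labels do not say that A and B were separate differentiations. P-values therefore measure the spread between libraries, and an exact permutation test of 2 against 2 cannot go below 0.333.

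Values are printed for the most abundant gene of each family and for up to 8 genes with the largest fold change past the threshold in each comparison, and some further members are named. Some members are not reported here, although the counts and medians include every member. Members and lists were chosen with earlier results of these data known. Gene positions are from RefSeq. The code was tested on simulated data.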

Additional observations from a re-analysis of the deposited data

Results flagged for a closer look

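The difference between STMN2+ and STMN2- cells changed between D11 and D45 for 14 of the 35 genes tested, by the test of the interaction itself (quasi-likelihood test of edgeR, with p-values adjusted by Benjamini and Hochberg's method), which was added after the data had been seen. Among them, the log2 difference became smaller for GRIK3 (-3.57), GRM7 (-0.92), GRIN2D (-0.85) and GRIK5 (-0.46). It moved towards STMN2+ cells for GABRG3 (1.21), GABRB2 (1.19), GABRA3 (1.05), GABRA2 (0.86), GRM8 (0.83), GRIK1 (0.80) and GRIA1 (0.77). Of these, GABRG3, GABRA2, GRM8, GRIK1 and GRIA1 were lower in STMN2+ cells of both D11 libraries and higher in those of both D45 libraries. Over all genes 17.3% passed (4.14% up and 13.1% down). DESeq2's size factors gave 8 receptor genes up and 7 down, and 1297 up and 2075 down over all genes. With 3 or more STMN2 UMIs required, 3856 of 19123 genes were up and 3306 down, and without STMN2+ cells that carried 3 or more markers of another type 2617 of 18734 were up and 3267 down, so the background depends on the gate. With DESeq2 16 of 34 receptor genes passed, against 2993 of 17086 over all genes. Leaving out 1 library moved the count of receptor genes and that of all genes. The part of other cell types within the STMN2- class was not tested.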

How the results depend on the processing

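Each count of receptor genes past the threshold was recomputed under the alternatives, as were the values of up to 8 genes with the largest changes past the threshold in each comparison. None of these values changed direction. Some missed the threshold under an alternative, mostly from D28 to D45 and between GAD2+ and SLC17A6+ cells. Other named genes were not summarised in this way. Deviations from the day means of same-lettered libraries correlated at -0.32, 0.05 and -0.20 over 22197 genes. With 1 A and 1 B library per day, these values cannot show whether the letters marked paired libraries. With the letter as a replicate block, 5 of 40 genes passed in whole organoids from D28 to D45, against 635 of 22197 over all genes. In STMN2+ cells 3 of 40 passed over these days, against 336 of 21393. There DESeq2 gave 14 of 37, against 3400 of 19319, and a gate of 3 or more STMN2 UMIs gave 5 of 38, against 572 of 20165. Between GAD2+ and SLC17A6+ cells, no filter on low counts gave 11 of 40, against 1007 of 26392 over all genes. There 2 or more class UMIs gave 5 of 32, against 527 of 14249. For the change of that difference from D28 to D45 these gave 4 of 40 and 1 of 32, against 256 of 26392 and 68 of 14249. Leaving out 1 library gave, in whole organoids, 14 to 32 genes from D11 to D28, 0 to 23 from D28 to D45 and 20 to 37 from D11 to D45. In STMN2+ cells the ranges were 9 to 29, 0 to 19 and 16 to 34. They were 16 to 21 between STMN2+ and STMN2- cells, 11 to 21 for the change of that difference, 0 to 3 between GAD2+ and SLC17A6+ cells and 0 to 1 for the change of that one. Where a day kept 1 library, that library was assumed to vary like the others. The counts over all genes moved in these fits as well, so the ranges are not set apart from all genes. The other counts stayed within 1.5 times the reported ones, and the causes of the moved counts were not tested. The 37 and 47 GAD2+ cells on D11 limit what that comparison can show.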
